A study of Mus musculus with 24 samples.

Results

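Heat shock chaperones were followed over the 24 macrophage libraries as a group of 10 genes out of 35770 listed: Hspa1a, Hspa1b, Hsph1, Dnajb1, Dnaja1, Hsp90aa1, Hspa8, Hspb1, Bag3 and Hsf1. The members were chosen by name, all 10 were listed in the TPM table, and all 10 passed the filter on low values, so that none was left out of the 13661 genes tested. Murine bone marrow-derived macrophages (BMDMs) from C57BL/6 mice had been grown with M-CSF at 20 ng/mL and then treated for 24 h, with 3 libraries in each of 8 groups. They received control media (media/vehicle and media/CDDO-Me) or a mixture of 75% conditioned media (CM) and fresh media, and the CM came from LL2 Lewis lung carcinoma cells that were wild type (WT), KEAP1 knockout (KO) or NRF2 KO and had conditioned it for 48 h. Each of the 4 media was given with vehicle or with the triterpenoid CDDO-Me at 100 nM. The deletions were in the cancer cells, and the macrophages of every group were unedited. Values are TPM, a share of all transcripts in a library, corrected for transcript length, and the 3 values of a group are given in the order of the library number. The table's name also calls its values length-scaled counts, but each library sums to 1000000 and no value holds more than 10 significant digits, which a rescaled count would. They were therefore read as TPM, on which each comparison of levels between genes rests. In bulk RNA, fewer cells of a type and less RNA per cell cannot be told apart.

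Heat shock proteins hold unfolded or newly made proteins until they fold. The HSP70 proteins, made from the inducible genes Hspa1a and Hspa1b and the constitutive gene Hspa8, take up short stretches of a client, J-domain proteins such as those of Dnajb1 and Dnaja1 deliver the client, and the HSP110 protein of Hsph1 and the BAG-domain protein of Bag3 exchange the nucleotide that HSP70 holds. Hsp90aa1 encodes the stress-inducible cytosolic HSP90, and Hspb1 encodes the small heat shock protein HSP27 (also known as HSP25 in the mouse). Heat shock factor 1, encoded by Hsf1, is held inactive by chaperones and, once freed by unfolded or modified proteins, binds heat shock elements, which are inverted repeats of GAA and TTC, upstream of many of these genes. CDDO-Me reacts with cysteines of KEAP1 and so frees the transcription factor NRF2, and cysteine-reactive compounds of this kind are also known as activators of the heat shock response in other cells.

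The stretch of 200 bases before the annotated start of the transcript is shown for the inducible HSP70 pair, for Hspb1, the member with the largest fitted changes, and for Bag3, the member called in the most comparisons. Sequences are from GRCm39, read 5′ to 3′ on the strand of the gene, and capitals mark the heat shock element pair GAANNTTC. The windows are chr17:35191133-35191332 (minus strand) for Hspa1a, chr17:35178215-35178414 (minus strand) for Hspa1b, chr5:135916560-135916759 (plus strand) for Hspb1 and chr7:128125083-128125282 (plus strand) for Bag3, and none of their bases lies in an annotated exon of the gene.
Hspa1a: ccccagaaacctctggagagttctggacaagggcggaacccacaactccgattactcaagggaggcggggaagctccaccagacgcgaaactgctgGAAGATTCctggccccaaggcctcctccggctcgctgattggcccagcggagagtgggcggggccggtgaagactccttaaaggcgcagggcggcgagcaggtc
Hspa1b: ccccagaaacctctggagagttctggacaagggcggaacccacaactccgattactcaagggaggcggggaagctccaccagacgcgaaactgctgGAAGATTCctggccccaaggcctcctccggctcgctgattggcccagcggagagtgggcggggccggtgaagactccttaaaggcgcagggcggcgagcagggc
Hspb1: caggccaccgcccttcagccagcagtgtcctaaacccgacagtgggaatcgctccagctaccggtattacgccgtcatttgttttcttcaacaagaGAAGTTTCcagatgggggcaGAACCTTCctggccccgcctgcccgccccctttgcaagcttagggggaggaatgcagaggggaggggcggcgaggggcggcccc
Bag3: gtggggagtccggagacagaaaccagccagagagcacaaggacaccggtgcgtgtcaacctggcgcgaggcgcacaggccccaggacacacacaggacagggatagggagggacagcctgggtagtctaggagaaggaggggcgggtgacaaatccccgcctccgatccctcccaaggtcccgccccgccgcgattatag

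The Hspa1a and Hspa1b windows were identical at 199 of 200 bases and differed only by T199G, counted from 1 at the 5′ end with the Hspa1a base first. Each held GAANNTTC once, starting 104 bases before the start of the transcript, and Hspb1 held it at 104 and at 84 bases. Searched over the 250 bases before the start, GAANNTTC, which reads the same on both strands, was present in 4 of 10 members (Hspa1a, Hspa1b, Hspb1 and Dnaja1) and in 6.33% of 21593 protein-coding genes. The opposite arrangement TTCNNGAA was found in 1 of 10, Hsph1, and in 6.77% of all genes, and a longer element of 3 alternating units, which contains both, was found in 0 of 10 and in 0.343%. The core of the antioxidant response element that NRF2 binds, TGACNNNGC on either strand, was found in 2 of 10 members, Hsph1 and Dnajb1, and in 9.71% of all genes. The windows of Hsph1 and Dnaja1 lie wholly within exons of other transcripts of the same gene. A match is a stretch of letters and not a measured binding site, and these windows show nothing about elements further away.

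Macrophage markers were high in every library, with 10 genes summing to 15629 to 39371 TPM, while 6 lymphocyte markers stayed at or below 1.61 TPM. With CDDO-Me in WT CM, 2 of the macrophage markers were called higher and 4 lower. The 7 neutrophil or granulocyte precursor markers summed to 10.9 to 72.8 TPM, with the highest sums in KEAP1 KO CM/CDDO-Me (64.7 to 72.8 TPM). The 10 fibroblast or stromal markers, such as Col1a1 and Sparc, summed to 346 to 3677 TPM, of which only Lum reached 0, in 1 library, and in each of the 8 groups the library numbered 3 had the lowest sum. The 4 dendritic markers summed to 100 to 127 TPM in WT CM/CDDO-Me, 46.8 to 86.0 TPM in KEAP1 KO CM/CDDO-Me and at most 1.82 TPM in the other groups. The libraries numbered 3 of NRF2 KO CM/vehicle and NRF2 KO CM/CDDO-Me listed 15702 and 16299 genes above 0, against 17817 to 18993 in the others. As a check of the drug, 9, 7, 8 and 9 of 9 NRF2 target genes were higher with CDDO-Me in control media and in the CM of WT, KEAP1 KO and NRF2 KO cells, with median log2 differences of 2.10, 1.38, 1.92 and 2.46.

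Hspa8 was by far the most abundant member. Its level was the highest of the 10 in all 24 libraries, at 1087 to 2563 TPM, and it made up 65.9% to 87.8% of the summed level of the members. Hsp90aa1 (101 to 296 TPM) and Dnaja1 (110 to 218 TPM) held the next places in every library, and their ranges overlapped. Bag3 (33.1 to 81.1 TPM), Hsph1 (16.8 to 70.8 TPM), Hsf1 (21.4 to 40.7 TPM), Dnajb1 (9.19 to 26.0 TPM) and Hspb1 (3.29 to 74.0 TPM) overlapped in level and changed order between libraries. The inducible HSP70 genes were low, with Hspa1b at 5.64 to 28.3 TPM and Hspa1a the lowest of the 10 in all 24 libraries at 1.50 to 7.02 TPM. Summed, Hspa1a and Hspa1b stood at 39.7- to 321-fold less than Hspa8 within a library.

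**Figure D1:**
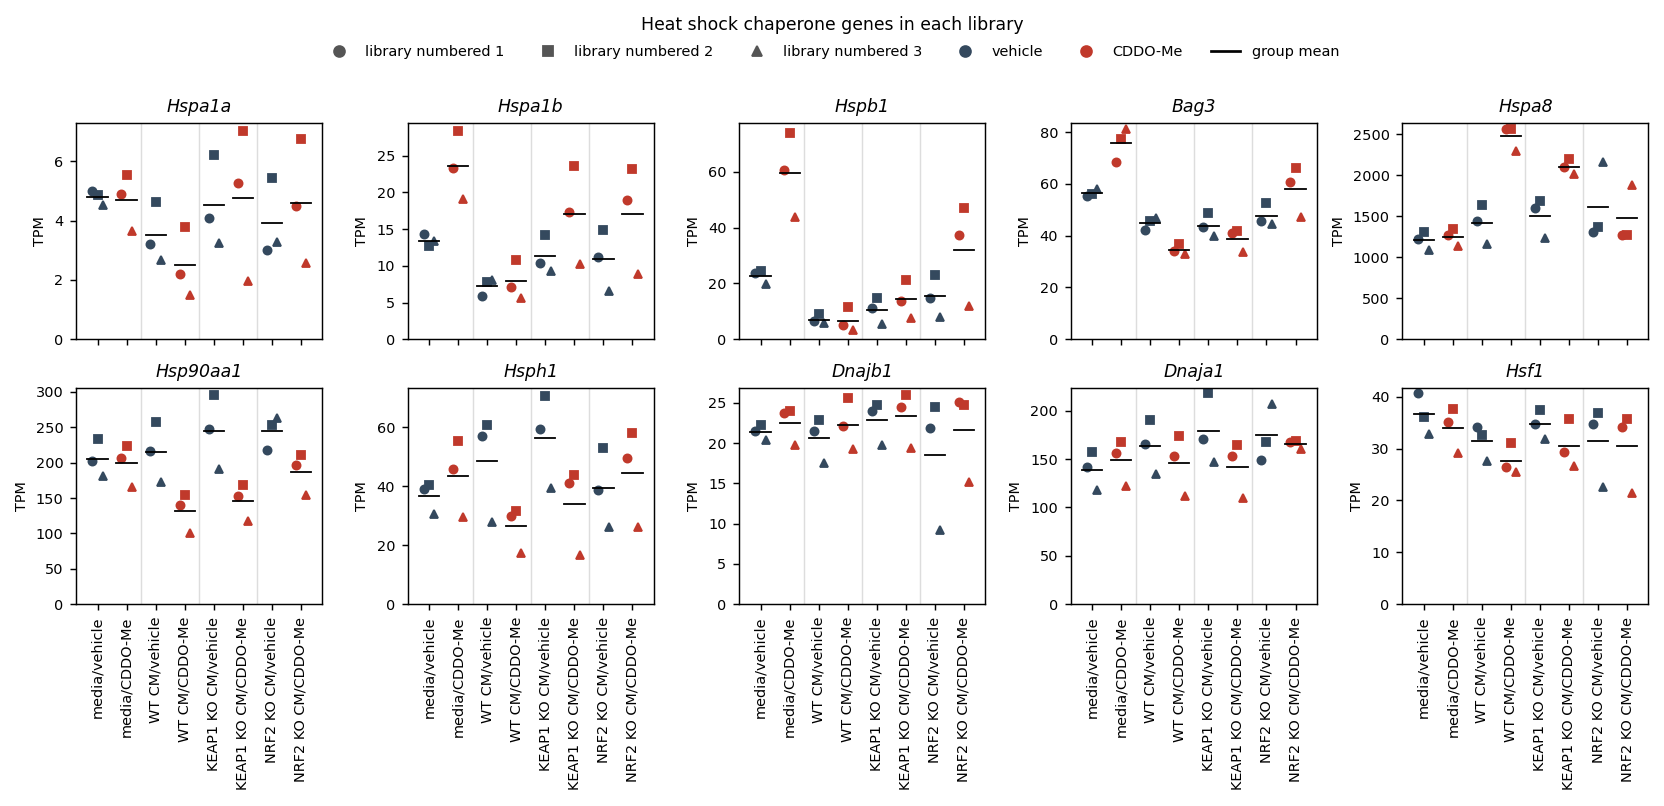
TPM of the 10 members (vertical axes, linear from 0) in each of 24 libraries, by group (horizontal axes), with the group mean as a bar and the library number as the marker shape. Hspa8 stands at 2294 to 2563 TPM in WT CM/CDDO-Me, above the 1157 to 1639 TPM of WT CM/vehicle, and Hspb1 is highest in media/CDDO-Me at 44.0 to 74.0 TPM.

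With CDDO-Me, different members passed the test in different media, and 6 of the 10 (Hspa1a, Hspa1b, Hsph1, Dnajb1, Dnaja1 and Hsf1) passed it in 0 of the 14 comparisons, although Hspa1a, Hspa1b, Hsph1, Dnajb1 and Dnaja1 each passed in some alternative fit. A member was called when limma's moderated test on log2 of scaled TPM + 1 gave a p below 0.05 after Benjamini-Hochberg adjustment across the tested genes. In control media 1 of 10 members was called, Bag3, which was higher with CDDO-Me, against 6.01% of all genes called in either direction. In WT CM 2 of 10 were called, Hspa8 (higher) and Hsp90aa1 (lower), against 27.8% of all genes, and the same 2 genes were called in the same directions in KEAP1 KO CM, against 28.8%. In NRF2 KO CM 0 of 10 were called, with 3 below 0.05 before adjustment (Hspb1, Bag3 and Hsp90aa1), against 9.77% of all genes. These shares give no sign that the members were called more often than other genes. The median log2 difference of the members was 0.09, -0.10, 0.06 and 0.16 in the 4 media in that order, and that of all genes was -0.01, -0.03, -0.02 and -0.01. The study's methods call the samples of a group independent, but neither they nor the labels name separate animals or cultures, so the p-values measure the spread between these libraries, which may be technical.

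**Figure D2:**
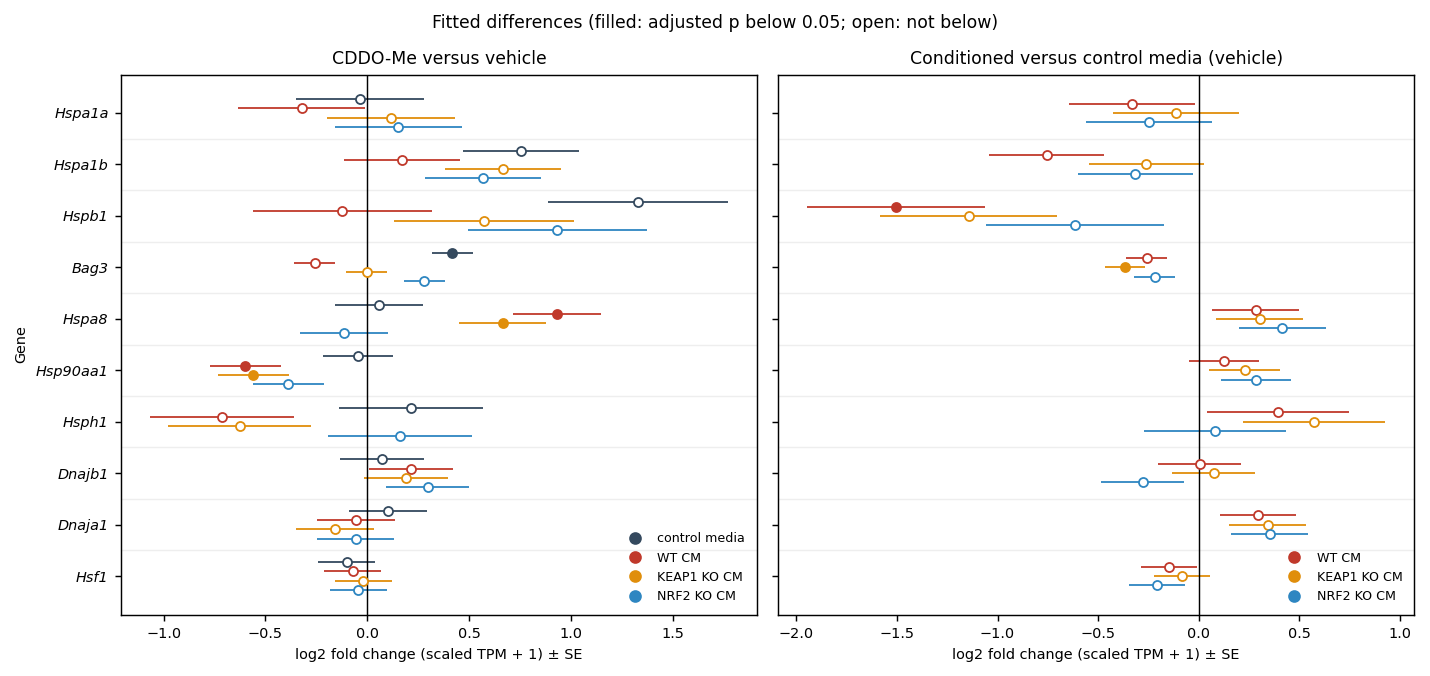
Log2 differences of scaled TPM + 1 (horizontal axes) with their SE for the 10 members (vertical axes), coloured by medium, for CDDO-Me against vehicle on the left and for each CM against control media on the right, with filled points for an adjusted p below 0.05. The filled points are Bag3 in control media (0.42), Hspa8 and Hsp90aa1 in WT CM (0.93 and -0.60) and KEAP1 KO CM (0.66 and -0.56), and, on the right, Hspb1 with WT CM (-1.50) and Bag3 with KEAP1 KO CM (-0.37).

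Hspb1, at chr5:135916760-135918417, had the widest range of the members. Its levels were 23.8, 24.5 and 19.9 TPM in media/vehicle and 60.5, 74.0 and 44.0 TPM in media/CDDO-Me, so that the groups did not overlap. The log2 difference of 1.33 (SE 0.44) had an adjusted p of 0.089 in limma and was not called. With the replicate number as a block over all 24 libraries, limma's adjusted p was 0.000657. In this comparison the number was taken to pair the libraries. In control media 3 of 10 members did not overlap between the groups, Hspb1, Hspa1b and Bag3, against 31.5% of all genes. With WT CM the Hspb1 levels were 6.64, 8.92 and 5.70 TPM with vehicle and 4.97, 11.7 and 3.29 TPM with CDDO-Me, and these overlapped. The log2 difference in WT CM was -0.12 (SE 0.44), and it became 0.57 with the fibroblast marker level as a covariate and 0.13 without the libraries numbered 3. In KEAP1 KO CM the levels were 11.1, 14.9 and 5.45 TPM with vehicle and 13.9, 21.4 and 7.78 TPM with CDDO-Me, a log2 difference of 0.57 (SE 0.44). With CM of NRF2 KO cells they were 14.8, 23.2 and 8.09 TPM and 37.3, 47.0 and 12.1 TPM, a log2 difference of 0.93 (SE 0.44) that limma did not call (adjusted p = 0.232), and the blocked adjusted p in this paired comparison was 0.00839. In each of these media the library numbered 3 had the lowest Hspb1 level and the lowest fibroblast marker sum. The mean of the markers' log2 levels was used as a covariate. With it the adjusted p of limma was 0.000223 in control media, 0.00037 in KEAP1 KO CM and 0.000681 in NRF2 KO CM. The difference between the CDDO-Me effects in WT CM and control media was -1.45 (SE 0.62), with an adjusted p of 0.144 in limma.

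Hspb1 was lower in macrophages given WT CM than in those given control media, both with vehicle. The log2 difference was -1.50 (SE 0.44), a fall to 0.352 of the control level, with an adjusted p of 0.043 in limma, and the groups did not overlap. It was the 1 member called in this comparison, against 7.34% of all genes. The value without each of the 6 libraries in turn was -1.65 to -1.40, and the call was lost each time, as it was without scaling between libraries and without the filter on low values. With the replicate block, limma's adjusted p in this paired comparison was 0.000162. The fibroblast markers summed to 1346 to 2410 TPM in media/vehicle and 960 to 2065 TPM in WT CM/vehicle, and with their level as a covariate the log2 difference of Hspb1 was -1.27, with an adjusted p of 0.000796 in limma. With KEAP1 KO CM the log2 difference from control media was -1.14 (SE 0.44; adjusted p = 0.138 in limma) and with NRF2 KO CM it was -0.62 (SE 0.44; adjusted p = 0.471). The epithelial markers summed to 4.98 to 6.01 TPM in WT CM/vehicle and 1.55 to 2.49 TPM in media/vehicle, and their part in the result was not tested.

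Bag3, at chr7:128125283-128148705, encodes the HSP70 partner that directs clients to selective autophagy. In control media its levels were 55.1, 56.0 and 58.2 TPM with vehicle and 68.4, 77.3 and 81.1 TPM with CDDO-Me, and every CDDO-Me library was above every vehicle library. The rise was 0.42 on the log2 scale (SE 0.10; 1.34-fold), with an adjusted p of 0.015 in limma. Leaving out media/vehicle replicate 1, media/vehicle replicate 2 or media/CDDO-Me replicate 3 took the adjusted p above 0.05 (at most 0.1003), with log2 differences of 0.32 to 0.50 over the 6 libraries left out in turn. In WT CM the levels were 42.3, 45.7 and 46.8 TPM with vehicle and 34.0, 36.8 and 33.1 TPM with CDDO-Me. Those groups did not overlap, but the log2 difference of -0.26 (SE 0.10) was not called (adjusted p = 0.064 in limma). In KEAP1 KO CM the levels were 43.2, 48.6 and 39.9 TPM with vehicle and 41.1, 41.9 and 33.7 TPM with CDDO-Me, and the fitted difference, -0.0039 (SE 0.10), took either sign under the scalings tried. With CM of NRF2 KO cells they were 45.5, 52.5 and 44.4 TPM with vehicle and 60.8, 66.0 and 47.3 TPM with CDDO-Me, a log2 difference of 0.28 (SE 0.10; adjusted p = 0.094 in limma).

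The effect of CDDO-Me on Bag3 depended on the medium. The difference between its effects in WT CM and in control media was -0.68 (SE 0.14), with an adjusted p of 0.0021 in limma's interaction test, and Bag3 was the 1 member called there, against 15% of all genes. This call held in each of the 25 alternatives, with values from -0.78 to -0.53, among them -0.64 with the fibroblast marker covariate and -0.53 without the libraries numbered 3. The same difference for KEAP1 KO CM was -0.42 (SE 0.14), with an adjusted p of 0.053 in limma, so that 0 of 10 members were called, with 1 below 0.05 before adjustment, against 14.7% of all genes. For NRF2 KO CM it was -0.14 (SE 0.14), with 0 of 10 members and 0% of all genes called and 0 members below 0.05 before adjustment. Without drug, Bag3 was also lower with KEAP1 KO CM than with control media, by 0.37 on the log2 scale (SE 0.10; limma's adjusted p = 0.027). It was the 1 member called in that comparison, against 7.96% of all genes, and the call was lost without scaling and when any of the 6 libraries other than KEAP1 KO CM/vehicle replicate 2 was left out. With WT CM the difference was -0.26 (SE 0.10; adjusted p = 0.151) and with NRF2 KO CM it was -0.22 (SE 0.10; adjusted p = 0.406).

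Hspa8, at chr9:40711630-40731039, encodes the constitutive HSP70 of every cell, which also serves in clathrin uncoating and chaperone-mediated autophagy. In WT CM its levels rose from 1441, 1639 and 1157 TPM with vehicle to 2558, 2563 and 2294 TPM with CDDO-Me, with no overlap. The rise was 0.93 on the log2 scale (SE 0.22; 1.91-fold), with an adjusted p of 0.0024 in limma, and it was called in all 19 alternatives. In WT CM 3 of 10 members did not overlap between the groups, Hspa8, Hsp90aa1 and Bag3, against 53.5% of all genes. In KEAP1 KO CM the levels rose from 1601, 1686 and 1234 TPM to 2098, 2193 and 2013 TPM, by 0.66 on the log2 scale (SE 0.22; 1.58-fold; limma's adjusted p = 0.025). This call was lost without KEAP1 KO CM/vehicle replicate 3, KEAP1 KO CM/CDDO-Me replicate 1 or KEAP1 KO CM/CDDO-Me replicate 3, without the filter, and with the fibroblast marker covariate (0.60; adjusted p = 0.057). In that medium 2 of 10 members did not overlap, Hspa8 and Hsp90aa1, against 54.1% of all genes.

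In control media Hspa8 stood at 1228, 1303 and 1087 TPM with vehicle and 1274, 1343 and 1135 TPM with CDDO-Me, a log2 difference of 0.06 whose 95% interval was -0.39 to 0.51. With CM of NRF2 KO cells it stood at 1308, 1371 and 2160 TPM with vehicle and 1276, 1265 and 1879 TPM with CDDO-Me, a log2 difference of -0.11 with an interval of -0.56 to 0.34. The highest value in each of the NRF2 KO CM groups came from the library numbered 3, which listed the fewest genes, and the SE of 0.22, shared by all groups, contains that spread. Without the libraries numbered 3 the SE was 0.06 and the log2 differences were 0.04 in control media, 0.88 in WT CM, 0.58 in KEAP1 KO CM and -0.05 in NRF2 KO CM. The difference between the CDDO-Me effects in WT CM and control media was 0.87 (SE 0.31), with an adjusted p of 0.063 in limma. It was called in 0 of the 12 fits that left out a library. For KEAP1 KO CM that difference was 0.61 (SE 0.31; limma's adjusted p = 0.230). Without all libraries numbered 3 the WT CM value was 0.85 (SE 0.08), with an adjusted p of 1.06e-05 in limma. That fit was added after the data were examined, so its p does not settle whether the effects differ. The summed level of the dendritic markers was raised in the same groups as Hspa8. Of the 3 tested, 2 were called higher with CDDO-Me in WT CM and in KEAP1 KO CM. The largest log2 differences of the list were 6.59 and 5.92, and the lowest were -0.18 and -0.23. The part of these markers in the Hspa8 result was not tested.

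Hsp90aa1, at chr12:110656842-110669166, was called lower with CDDO-Me in WT CM and KEAP1 KO CM, the media in which Hspa8 was called higher. In WT CM it fell from 216, 257 and 173 TPM with vehicle to 140, 154 and 101 TPM with CDDO-Me, by 0.60 on the log2 scale (SE 0.17; 0.66-fold; limma's adjusted p = 0.013). In KEAP1 KO CM it fell from 248, 296 and 191 TPM to 153, 169 and 118 TPM, by 0.56 (SE 0.17; 0.678-fold; adjusted p = 0.019). In neither medium did the groups overlap. The first call was lost without WT CM/vehicle replicate 2 or WT CM/CDDO-Me replicate 3, and the second without KEAP1 KO CM/vehicle replicate 1, KEAP1 KO CM/vehicle replicate 2 or KEAP1 KO CM/CDDO-Me replicate 3. The sum of the fibroblast markers moved the same way. It was 960 to 2065 TPM in WT CM/vehicle and 399 to 1055 TPM in WT CM/CDDO-Me. In KEAP1 KO CM it was 1315 to 2586 TPM with vehicle and 346 to 1423 TPM with CDDO-Me. Of the 10 markers, 1 was called lower in each of these media, and 1 had a positive log2 difference (0.52 in WT CM and 0.96 in KEAP1 KO CM). With the level of the markers as a covariate the log2 difference of Hsp90aa1 was -0.39 in WT CM (limma's adjusted p = 0.043) and -0.35 in KEAP1 KO CM (adjusted p = 0.074). Because that level itself shifted with the drug, the covariate can take up part of a CDDO-Me effect. In NRF2 KO CM Hsp90aa1 was the 1 member with no overlap, against 17.6% of all genes, at 219, 253 and 263 TPM with vehicle and 196, 211 and 154 TPM with CDDO-Me. That log2 difference, -0.39 (SE 0.17), was not called (adjusted p = 0.201). In control media it was -0.05 (SE 0.17). The CDDO-Me effect on Hsp90aa1 in WT CM differed from that in control media by -0.55 (SE 0.25; adjusted p = 0.162 in limma's interaction test). For KEAP1 KO CM this was -0.51 (SE 0.25; adjusted p = 0.201). Neither was called, so that a dependence of the Hsp90aa1 change on the medium was not shown. Its close relative Hsp90ab1, the constitutive HSP90, was called higher with CDDO-Me in WT CM, by 0.41 on the log2 scale.

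Because the levels share a library, the ratio of Hspa8 to Hsp90aa1 does not depend on the scaling between libraries. It was 5.57 to 6.08 in media/vehicle, 5.99 to 6.85 in media/CDDO-Me, 6.37 to 6.67 in WT CM/vehicle and 5.69 to 6.47 in KEAP1 KO CM/vehicle. With CDDO-Me it was 16.6 to 22.6 in WT CM and 13.0 to 17.1 in KEAP1 KO CM, above every library of the other 6 groups. With CM of NRF2 KO cells it was 5.42 to 8.23 with vehicle and 6.01 to 12.2 with CDDO-Me, the highest of each coming from the library numbered 3. The pair was chosen after its values were seen, and the ratio was not tested.

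**Figure D3:**
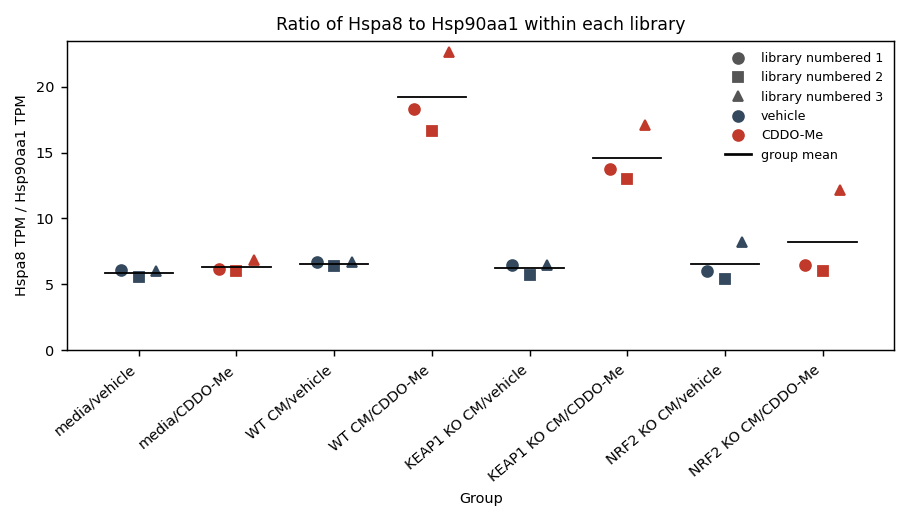
Ratio of Hspa8 TPM to Hsp90aa1 TPM (vertical axis, linear from 0) in each of 24 libraries, by group (horizontal axis), with the group mean as a bar. WT CM/CDDO-Me at 16.6 to 22.6 and KEAP1 KO CM/CDDO-Me at 13.0 to 17.1 stand above the other groups, the nearest library of which is at 12.2.

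Hspa1b and Hspa1a, at chr17:35175412-35178214 and chr17:35188166-35191132, are single-exon neighbours on the minus strand. Their annotated transcripts share 1873 stretches of 31 bases, 67.6% of those in Hspa1b and 63.8% of those in Hspa1a, so that the division of reads between them is uncertain. Hspa1b carried 62.9% to 84.0% of the summed level. In control media Hspa1b stood at 14.3, 12.6 and 13.4 TPM with vehicle and 23.4, 28.3 and 19.1 TPM with CDDO-Me, with no overlap, while Hspa1a stood at 5.00, 4.85 and 4.53 TPM and 4.91, 5.52 and 3.65 TPM. The log2 difference of Hspa1b, 0.75 (SE 0.29), was not called (limma's adjusted p = 0.151), and the blocked adjusted p in this paired comparison was 0.0244. With Hspa1b and Hspb1 the blocked fit called 3 members in control media, against 1466 of all 13661 genes. Summed, the copies had a log2 difference of 0.59 (SE 0.30; adjusted p = 0.348).

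Hspa1b was not called with CDDO-Me in any of the 3 CM, and the groups overlapped in each. With WT CM it stood at 5.88, 7.85 and 8.05 TPM with vehicle and 7.11, 10.9 and 5.64 TPM with CDDO-Me, a log2 difference of 0.17 (SE 0.29). With KEAP1 KO CM it stood at 10.4, 14.2 and 9.23 TPM and 17.3, 23.5 and 10.3 TPM (log2 difference 0.67; SE 0.29; limma's adjusted p = 0.093). That difference was called in 6 of 20 alternatives, among them the fibroblast covariate (1.08; limma's adjusted p = 0.000325), the fit without the libraries numbered 3 (0.87; adjusted p = 0.00426) and that without KEAP1 KO CM/CDDO-Me replicate 3 (0.96). The sum of both copies was not called there (0.54, SE 0.30, limma's adjusted p = 0.201). With NRF2 KO CM Hspa1b stood at 11.2, 14.8 and 6.62 TPM and 19.0, 23.1 and 8.91 TPM (0.57; SE 0.29; adjusted p = 0.272). Between WT CM and control media with vehicle, Hspa1b differed by -0.75 (SE 0.29) with no overlap. It was uncalled in limma (adjusted p = 0.137) and called with the replicate block (limma's adjusted p = 0.0213 in this paired comparison). In that comparison 3 of 10 members did not overlap, Hspb1, Hspa1b and Bag3, against 35% of all genes. The interval of the CDDO-Me effect on Hspa1a was -0.69 to 0.62 in control media, so that a change of that size in either direction could not be seen.

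Hsph1, at chr5:149537636-149560156, encodes an HSP110, the nucleotide exchange factor that works with HSP70 in separating aggregates. Its levels were 57.2, 60.7 and 27.9 TPM in WT CM/vehicle and 30.0, 31.8 and 17.5 TPM in WT CM/CDDO-Me. In KEAP1 KO CM they were 59.5, 70.8 and 39.5 TPM with vehicle and 41.2, 43.9 and 16.8 TPM with CDDO-Me. The groups overlapped in both media through the libraries numbered 3. The log2 differences of -0.71 (SE 0.35) and -0.63 (SE 0.35) were not called (limma's adjusted p = 0.157 and 0.216). Between same-numbered libraries they were -0.78, -0.80 and -0.57 in WT CM and -0.33, -0.50 and -1.05 in KEAP1 KO CM. With the replicate number as a block Hsph1 was called in both media, along with 4633 and 4819 of all genes. In neither comparison was the number taken to pair the libraries. Of the members, Hsph1 varied most closely with the fibroblast markers, with r = 0.96 over 24 libraries after each group's mean was taken off. With their level as a covariate the log2 differences of Hsph1 were -0.11 in WT CM and -0.0026 in KEAP1 KO CM. The marker level itself shifted with CDDO-Me in both media, so that the covariate can take up part of a drug effect.

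The J-domain members and Hsf1 were called in 0 of the 14 comparisons, and only Hsf1 was also uncalled in the alternatives. Dnajb1, at chr8:84334811-84339820, encodes the J-domain partner of HSP70 that also restrains heat shock factor 1, and its log2 differences over the 14 comparisons were -0.28 to 0.30. Those of Dnaja1, at chr4:40722056-40737149, were -0.26 to 0.35, and those of Hsf1, at chr15:76361558-76388138, were -0.21 to 0.12. The smallest adjusted p of limma over the 14 comparisons was 0.375, 0.37 and 0.45 in that order. With CDDO-Me, Dnajb1 was called in WT CM with array weights, and in both WT CM and KEAP1 KO CM with the fibroblast covariate and without the libraries numbered 3. Dnaja1 was called against control media for WT CM without the libraries numbered 3, and for KEAP1 KO CM without them or with array weights. Hsf1 stood at 40.7, 36.1 and 32.9 TPM in media/vehicle and 35.1, 37.6 and 29.2 TPM in media/CDDO-Me, which overlap, and its CDDO-Me effect there had an interval of -0.39 to 0.19. The activity of heat shock factor 1, which is set by its state more than by its RNA, was not measured. Hsf1 overlaps Bop1 and Dgat1 on the other strand, and where strand was not used in the quantification their reads could not be told apart.

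No member was called between WT CM and KEAP1 KO CM with vehicle or CDDO-Me, or between WT CM and NRF2 KO CM with vehicle. WT CM and NRF2 KO CM with CDDO-Me were not compared by a test here, and Hspa8 stood there at 2294 to 2563 TPM and 1265 to 1879 TPM. Between KEAP1 KO CM and WT CM with vehicle, limma called 0 of 10 members, with 0 below 0.05 before adjustment, and 0% of all genes. With CDDO-Me it called 0 of 10 members, with 2 below 0.05 before adjustment, against 0.0512% of all genes. Those 2 were Hspa1b, with a log2 difference of 0.99 (SE 0.29; adjusted p = 0.412), and Hspb1, with 1.06 (SE 0.44; adjusted p = 1), and all 3 same-numbered pairs of each were higher in KEAP1 KO CM. The blocked adjusted p in this paired comparison was 0.0512 for Hspa1b and 0.0551 for Hspb1. Without the libraries numbered 3, a fit added after the data were examined, the Hspa1b difference was 1.09, with an adjusted p of 0.0216 in limma. For the difference between the CDDO-Me effects in KEAP1 KO CM and WT CM, limma called 0 of 10 members, with 0 below 0.05 before adjustment, and 0% of all genes. Between WT CM and NRF2 KO CM with vehicle 0 of 10 members were called, with 0 below 0.05 before adjustment, against 10.7% of all genes, and Hspb1 had the largest log2 difference at -0.89 (SE 0.44; adjusted p = 0.199). Between NRF2 KO CM and control media 0 of 10 were called, with 1 below 0.05 before adjustment (Bag3), against 0.00732% of all genes. Groups did not overlap for 2 members between KEAP1 KO CM and control media (Hspb1 and Bag3; 35.8% of all genes), 2 between NRF2 KO CM and control media (Hspa8 and Bag3; 12.6%), 1 between KEAP1 KO CM and WT CM with vehicle (Hspa1b; 13.6%), 1 with CDDO-Me (Hspa8; 11.1%) and 0 between WT CM and NRF2 KO CM (26.4%). All of these comparisons share groups with those above, and the values of the 3 CM against control media rest on the same 3 media/vehicle libraries.

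The library number moved with most members. The library numbered 3 was the lowest of its group in 8 of 8 groups for Hsph1, Dnajb1, Hspb1 and Hsf1, in 7 of 8 for Hspa1a, Dnaja1 and Hsp90aa1, in 6 of 8 for Hspa1b and Hspa8, and in 5 of 8 for Bag3. What the number stands for is not given in the labels. Over the 24 libraries, after group means were taken off, r with the mean fibroblast marker level was 0.88 for Hspa1a, 0.87 for Hspb1, 0.79 for Hspa1b and Hsf1, 0.73 for Dnajb1, 0.69 for Hsp90aa1, 0.50 for Dnaja1, 0.28 for Bag3 and -0.16 for Hspa8. Pooled over the groups, Bag3 and Hspa8 thus had the weakest r. For Hspa8 this does not hold group by group. In 6 of 8 groups the library numbered 3 was lowest both for Hspa8 and for the fibroblast sum. In the groups with NRF2 KO CM it was the highest for Hspa8. With group means left in, r was 0.35 for Bag3 and -0.55 for Hspa8, against 0.16 for Dnajb1. Hspa1b and Hspb1 varied together (r = 0.92 after group means were taken off), as did Dnaja1 and Hsp90aa1 (r = 0.92). These points share a library, a scaling and a replicate number, and no test was made.

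**Figure D4:**
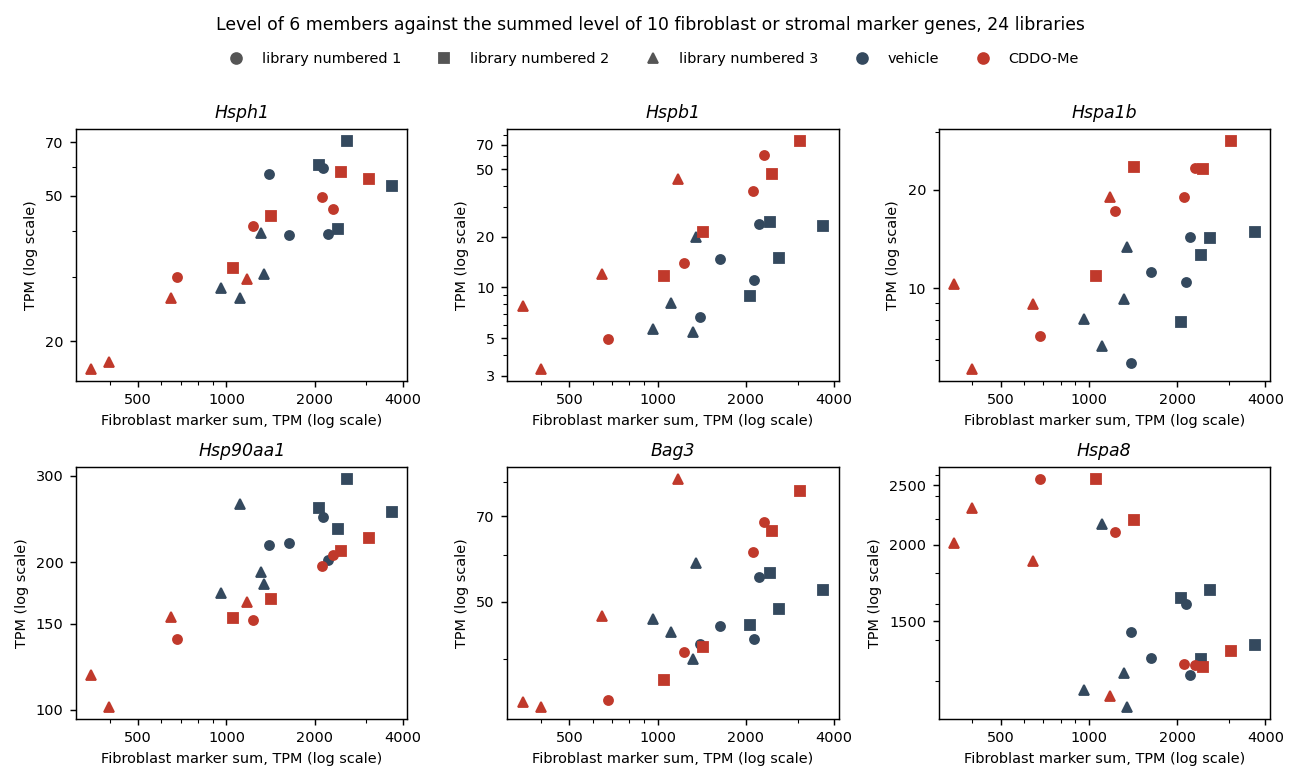
TPM of 6 members (vertical axes, log scale) against the summed TPM of 10 fibroblast or stromal marker genes (horizontal axes, log scale) in 24 libraries, with shape for the library number and colour for vehicle or CDDO-Me. Hsph1 rises along the axis within groups (r = 0.96 after group means are taken off). For Hspa8 the pooled r is -0.16. Its library numbered 3 is the lowest in 6 of 8 groups and the highest in the NRF2 KO CM groups.

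By the likeness of their pattern over the 24 libraries to the mean of the standardised members, the closest of 10053 genes that were no members were Lamb2 (r = 0.91), Adcy6, Col5a2 (r = 0.90 each), Arhgef25 and Cacnb3 (r = 0.89 each). The most opposite were Tnfrsf13b (r = -0.84), Eif3h (r = -0.83), Ostm1 and Coa8 (r = -0.82 each) and Rbm7 (r = -0.80). Lamb2 encodes a laminin chain and Col5a2 a fibrillar collagen chain.

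The other chaperone genes were given by 9 lists of 89 genes, of which 86 were tested. In control media CDDO-Me left 4 of 86 called (3 higher, 1 lower), a share of 4.65%, and in NRF2 KO CM 5 of 86 (2 higher, 3 lower), or 5.81%. In WT CM 13 of 86 were called, 2 higher and 11 lower, and in KEAP1 KO CM 18 of 86, 2 higher and 16 lower. Those shares, 15.1% and 20.9%, stand below the share of all genes given above. The 9 mitochondrial chaperones were lowered in 5 cases in each of these media, among them Hspd1, which encodes the chaperonin HSP60 (a log2 difference of -0.58 in WT CM and -0.72 in KEAP1 KO CM), the mitochondrial HSP70 gene Hspa9 (-0.31 and -0.43) and its exchange factor Grpel2 (-0.49 and -0.44). Of 14 genes for the cytosolic chaperonin TRiC and prefoldin, 1 was lower in WT CM (Cct6a, -0.25) and 4 in KEAP1 KO CM, including Pfdn1 (-0.56), Cct6a (-0.40) and Cct5 (-0.28), the last of which lost its call without KEAP1 KO CM/vehicle replicate 1 or 2.

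Among the partners of HSP90, Fkbp5, an immunophilin of steroid receptors that glucocorticoids induce, fell by 0.86 in WT CM and by 1.17 in KEAP1 KO CM on the log2 scale, and Stip1, which links HSP70 to HSP90, fell by 0.43 and 0.47. The Stip1 call in KEAP1 KO CM was lost without KEAP1 KO CM/vehicle replicate 1 or 2 or KEAP1 KO CM/CDDO-Me replicate 3. Stub1, the ubiquitin ligase that acts with HSP70, fell by 0.61 and 0.53. The J-domain gene Dnajb4 rose with CDDO-Me in control media (0.66) and in KEAP1 KO CM (0.88), and in WT CM its log2 difference was 0.25 with no call. Of 6 other HSP70 and HSP110 genes, 1 was called with CDDO-Me, Hspa14, which was lower in KEAP1 KO CM (-0.21) and kept the call in 1 of the 6 fits that left out a library, the one without KEAP1 KO CM/CDDO-Me replicate 3. The heat shock factor gene Hsf4 was lower in WT CM (-0.98) and KEAP1 KO CM (-0.91), at levels of 7.44 TPM or less. Of the small heat shock proteins other than Hspb1, 5 of 7 were tested and 0 were called with CDDO-Me in any medium.

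The chaperones of the endoplasmic reticulum, which answer to the unfolded protein response rather than to heat shock factor 1, were the list with the most calls for CM. With WT CM 5 of 16, and with KEAP1 KO CM 8 of 16, were higher than in control media, with median log2 differences of 0.45 and 0.52 against 0.01 and 0.00 for all genes, of which 7.34% and 7.96% were called in either direction. Pdia4, a protein disulfide isomerase, rose from 102, 123 and 81.5 TPM in media/vehicle to 312, 346 and 227 TPM in WT CM/vehicle and 371, 404 and 269 TPM in KEAP1 KO CM/vehicle. With CDDO-Me it was at 106, 129 and 96.4 TPM in WT CM and 126, 148 and 96.1 TPM in KEAP1 KO CM, falls of 1.29 and 1.32 on the log2 scale against vehicle (limma's adjusted p = 0.000123 and 8.92e-05). In NRF2 KO CM Calr, which encodes calreticulin, fell by 0.70, and Dnajc10, a J-domain protein of the same compartment, rose by 0.68, as it did in control media by 0.75. The Calr call was lost without the 2 libraries listing the fewest genes (-0.44; limma's adjusted p = 0.0803) and with only the compared groups, and the Dnajc10 call in control media without media/vehicle replicate 1, media/vehicle replicate 3 or media/CDDO-Me replicate 3. With CM, 3 and 4 of the 14 TRiC and prefoldin genes and 2 and 3 of the 9 mitochondrial genes were higher for WT CM and KEAP1 KO CM in that order. In all, 12 of 86 (14%) and 18 of 86 (20.9%) other chaperones were called with WT CM and KEAP1 KO CM against control media, of which 11 and 17 were higher, and 0 of 86 with NRF2 KO CM, against 7.34%, 7.96% and 0.00732% of all genes.

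**Figure D5:**
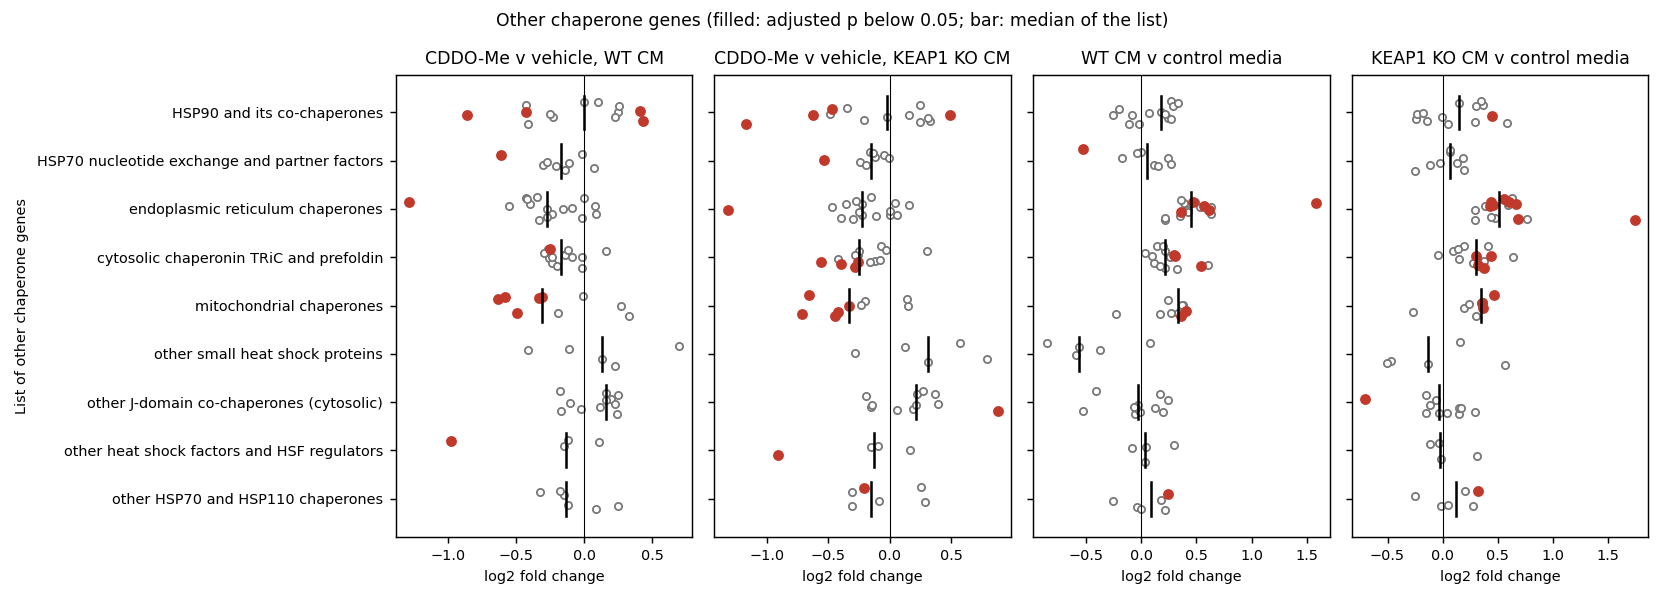
Log2 differences (horizontal axes) of 86 other chaperone genes by list (vertical axis) in 4 comparisons, with filled points for an adjusted p below 0.05 and a bar at the median of each list. The point furthest right for both CM is Pdia4 (1.59 with WT CM and 1.75 with KEAP1 KO CM), which is also the point furthest left for CDDO-Me in WT CM (-1.29) and KEAP1 KO CM (-1.32).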

How the data were processed

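BMDM RNA was measured in 24 libraries, grouped and numbered by their sample labels. The authors had poly-A libraries sequenced, used kallisto with the GRCm39 cDNA and deposited TPM values for 35770 gene names. The table's name also calls the values length-scaled counts. They were read as TPM because each library sums to 1000000 and 42.2% of values above 0 hold at most 6 significant digits, as kallisto writes them. The depth of each library cannot be read from TPM, and intervals based on counts were not made. A single unnamed row, 0.0199% to 0.0635% of a library, was left out. TPM were divided by trimmed-mean-of-M factors (trims of 30% and 5%), log2 of the value + 1 was taken, and the 13661 genes that exceeded a TPM of 1 in 3 or more libraries were fitted with limma 3.58.1 in R 4.3.3 (eBayes with a trend, 8 groups, 16 residual degrees of freedom). P-values are two-sided with Benjamini-Hochberg adjustment across the tested genes of each comparison, and the threshold was 0.05.

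Same-numbered libraries deviated together, with a mean r of 0.256 over 84 pairs, and in 5 of 10 comparisons of 2 groups every pair had r above 0.1. In those 5 the number was taken to pair the libraries, from the data alone. Of the 84 pairs, 71 had r above 0.1, but so did 31 of 168 pairs with different numbers (mean r -0.121). The cutoff was thus a choice that does not cleanly separate the comparisons. CDDO-Me in KEAP1 KO CM missed it with a lowest r of 0.0936. The block was an additive term for the number, fitted over all 24 libraries and 8 groups. It therefore also drew on groups whose pairs were not all above that r, and it is not a test of the pairs alone. The members, lists and tests were chosen with earlier results of these data known. Genes named are the 10 members and, from each list of other chaperones, up to 3 called genes with the smallest adjusted p with CDDO-Me, and the genes whose pattern was most like or unlike the members. Hsp90ab1 was named after its value was seen. A gene that this rule selects is not reported here. The fibroblast covariate and the fit without libraries numbered 3 were added after the data were examined. The covariate is not independent of the treatment, since its level shifted with CDDO-Me in WT CM and KEAP1 KO CM. Positions, promoter windows and transcripts are from GENCODE vM39 on GRCm39, the build of the authors. Plots were made with Python 3.11.15 and matplotlib 3.10.9.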

Additional observations from a re-analysis of the deposited data

Results flagged for a closer look

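The effect of CDDO-Me on Bag3 differed between WT CM and control media, by -0.68 on the log2 scale (SE 0.14; limma's interaction test, adjusted p = 0.0021). All 3 media/CDDO-Me libraries were above all 3 media/vehicle libraries, and all 3 WT CM/CDDO-Me libraries were below all 3 WT CM/vehicle libraries. No other member passed the interaction test.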

How the results depend on the processing

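The call of Hspa8 in WT CM with CDDO-Me held in 19 of 19 alternatives and that of the Bag3 interaction in 25 of 25. Of the values of single genes, 1285 kept their direction and side of the threshold, 109 passed it in addition, 45 no longer passed it and 29 changed sign, and the cause was not tested. Counts of members called, with the range when a library was left out, moved as follows. With CDDO-Me in control media 1 became 2 at a pseudocount of 5 and 3 with array weights, with only the compared groups, with the fibroblast covariate, without the 2 libraries listing the fewest genes and without the libraries numbered 3 (0 to 1). Over all genes tested those fits called 839, 3590, 1606, 1545, 2118 and 2442 in that order, against 821 in the main fit. In WT CM 2 became 3 without scaling, without the 2 libraries and with only the compared groups, 5 with array weights and 4 with the covariate or without the libraries numbered 3 (1 to 3). Over all genes tested those fits called 4040, 5926, 5029, 7140, 4393 and 5921 in that order, against 3798 in the main fit. In KEAP1 KO CM 2 became 1 without the filter, 3 with array weights and without the 2 libraries, 4 with the covariate and 5 without the libraries numbered 3 (1 to 2). Over all genes tested the calls there were 3932 without the filter, 7017 with array weights and 6145 without the 2 libraries, against 3929. In NRF2 KO CM 0 became 3 with array weights, 1 without the 2 libraries, 4 with the covariate and 3 without the libraries numbered 3 (0 to 1). For WT CM against control media 1 became 0 without scaling or filter, 4 with array weights, 3 without the 2 libraries, with only the compared groups or with the covariate, and 6 without the libraries numbered 3 (0). For KEAP1 KO CM against control media 1 became 0 without scaling, 5 with array weights or without the libraries numbered 3, 3 without the 2 libraries or with the covariate and 2 with only the compared groups (0 to 1). For KEAP1 KO CM against WT CM 0 became 1 with array weights, with vehicle and with CDDO-Me, and 2 with CDDO-Me without the libraries numbered 3. For WT CM against NRF2 KO CM 0 became 2 with array weights, 1 with the covariate and 4 without the libraries numbered 3. For the interaction of WT CM with control media 1 became 5 with array weights or without the libraries numbered 3, 2 without the 2 libraries and 3 with only the compared groups (1 to 2), and for that of KEAP1 KO CM 0 became 1 with another scaling, no scaling, a pseudocount of 5 or a mean TPM of at least 5, 4 with array weights or without the libraries numbered 3, and 2 without the 2 libraries or with only the compared groups (0 to 1).

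With the replicate number as a block, members called became 3 in control media, 3 in WT CM (Hsph1 added), 4 in KEAP1 KO CM (Hspa1b and Hsph1 added) and 1 in NRF2 KO CM with CDDO-Me, 2 and 3 for WT CM and KEAP1 KO CM against control media, 1 for WT CM against NRF2 KO CM, and 4 and 2 for the interactions of WT CM and KEAP1 KO CM with control media. The block raised the calls over all 13661 genes as well. In the same order these were 1466, 4633, 4819 and 1988, then 1734 and 1770, then 2568, then 2871 and 2919. In the comparisons where the number was taken to pair the libraries, the block changed no other call of a member than those given with their blocked values.

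The following values changed sign. Bag3 with CDDO-Me in KEAP1 KO CM was 0.0083 with another scaling, 0.042 with array weights, 0.022 without the 2 libraries, 0.039 with the covariate and 0.049 without the libraries numbered 3 (-0.058 to 0.083 with a library left out). Hspb1 in WT CM was 0.57 with the covariate and 0.13 without the libraries numbered 3 (-0.56 to 0.22). The Hspa1b interaction of KEAP1 KO CM was 0.062 with array weights and 0.24 with the covariate (-0.31 to 0.20). Hsph1 for NRF2 KO CM against control media was -0.028 with the covariate (-0.095 to 0.27). With a library left out, CDDO-Me differences ranged from -0.0019 to 0.10 for Hspa8 and -0.12 to 0.039 for Hsp90aa1 in control media, -0.050 to 0.35 for Hspa1b in WT CM, and -0.38 to 0.19 for Hspa8 and -0.022 to 0.42 for Hsph1 in NRF2 KO CM.

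Over all genes tested, the calls with CDDO-Me were 821 in control media (516 to 3590 over the alternatives), 3798 in WT CM (3091 to 7140), 3929 in KEAP1 KO CM (3185 to 7017) and 1335 in NRF2 KO CM (142 to 3033). Against control media they were 1003 for WT CM (606 to 4126), 1087 for KEAP1 KO CM (666 to 5024) and 1 for NRF2 KO CM (0 to 20). The highest of these came with array weights, except the 20, which came without the libraries numbered 3. Array weights also gave 1081 calls between KEAP1 KO CM and WT CM with vehicle and 3401 between WT CM and NRF2 KO CM. For the interactions of WT CM and KEAP1 KO CM with control media they gave 5394 and 5376. Without scaling the median of all genes for CDDO-Me in KEAP1 KO CM was -0.17 rather than -0.02. TPM carry no read depth, so that the counting error of the low members, Hspa1a above all, could not be given.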
